A study of Mus musculus with 8 samples.

Results

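The genes described here are 10 that mark endothelial cells, the cells that line blood and lymph vessels: Pecam1, Cdh5, Kdr, Flt1, Flt4, Tek, Tie1, Emcn, Vwf and Egfl7. They were taken by symbol, as a fixed list, from the 43346 gene identifiers counted in each sample. RNA was sequenced from notochord-derived cells of Shh-cre;ROSA:YFP mice at E12.5 (4 litters, NDP10.2, NPD3, NPD4 and NPD9.2) and at P0 (4 litters, NPD26, NPD27, NPD28 and NPD30), and the animals of a litter were pooled. All 8 samples carry the same alleles. Cre from the Shh locus switches on YFP where Shh is made, as in the notochord, and descendants of such cells stay labelled. At E12.5 whole notochords were dissected free of other tissue and lysed without sorting, whereas at P0 the nucleus pulposus (NP) cells were shaken loose and sorted for YFP, so stage and isolation cannot be told apart in any comparison below. The labels name no sample as endothelial, and a level given here is that of the whole pooled sample. In such bulk RNA, fewer cells of a type and less RNA per cell cannot be told apart.

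Reads on genes numbered 4442775 to 7180221 per litter at E12.5 and 6371842 to 8904050 at P0. Levels are CPM, the counts of a gene scaled to the size of the library by TMM, and 3 counts, the smallest signal taken as seen, equal 0.337 to 0.675 CPM before that scaling, for counting error only. T (brachyury), which defines the notochord lineage, was counted in every sample, at 242 to 942 CPM at E12.5 and 574 to 2323 CPM at P0. Some litters stood apart in markers of other cell types. Leukocyte markers summed to 3598 CPM in NPD26, 4223 CPM in NPD27, 4881 CPM in NPD28 and 555 CPM in NPD30, against 102 to 177 CPM at E12.5. Embryonic globin genes summed to 16124 CPM in NDP10.2 and 32815 CPM in NPD9.2 against 8120 and 8559 CPM in the other E12.5 litters. Each fold change below is P0 over E12.5 on a log2 scale ± SE, from edgeR's quasi-likelihood test with Benjamini-Hochberg adjustment over the 15467 genes tested, with calls made where the adjusted p was under 0.05.

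Endothelial cells are held together by VE-cadherin (Cdh5) and PECAM-1 (Pecam1) and carry the sialomucin endomucin (Emcn) on their surface. They respond to vascular endothelial growth factors through 3 receptor tyrosine kinases. VEGFR2 (Kdr) carries most of the growth and migration signal of VEGF-A, VEGFR1 (Flt1) binds VEGF-A tightly with weak kinase activity and in a soluble form acts as a decoy, and VEGFR3 (Flt4) answers VEGF-C and VEGF-D and is best known from lymphatic vessels. Tie2 (Tek) is the receptor of the angiopoietins and Tie1 its partner. Von Willebrand factor (Vwf) is stored in endothelial cells and platelets, and EGFL7 (Egfl7) is a secreted matrix protein whose gene also hosts the microRNA miR-126. The healthy NP is known as a tissue without blood vessels.

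The stretches before the transcription start of Flt1, Kdr and Emcn are shown because Flt1 rose and Emcn fell between the stages, while the fold change of Kdr, the other receptor of VEGF-A, had the opposite sign to that of Flt1. Each line gives the 250 bases before the RefSeq start on GRCm38.p6, 5′ to 3′ on the strand of the gene. Capitals mark CAGGAA or CCGGAA, letters bound by ETS-family factors, on either strand (TTCCTG or TTCCGG when read on the strand shown). Flt1 is at chr5:147726012-147726261 (minus strand), Kdr at chr5:75978456-75978705 (minus strand) and Emcn at chr3:137340828-137341077 (plus strand).
Flt1: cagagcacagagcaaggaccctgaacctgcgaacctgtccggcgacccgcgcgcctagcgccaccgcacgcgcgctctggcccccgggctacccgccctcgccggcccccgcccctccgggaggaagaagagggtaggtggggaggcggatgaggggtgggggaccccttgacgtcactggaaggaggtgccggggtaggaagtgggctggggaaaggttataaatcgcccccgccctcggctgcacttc
Kdr: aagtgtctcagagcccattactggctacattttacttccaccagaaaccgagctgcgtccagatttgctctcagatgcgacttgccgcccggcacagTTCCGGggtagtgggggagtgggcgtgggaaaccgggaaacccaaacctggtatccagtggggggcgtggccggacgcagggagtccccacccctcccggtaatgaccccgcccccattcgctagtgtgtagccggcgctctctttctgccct
Emcn: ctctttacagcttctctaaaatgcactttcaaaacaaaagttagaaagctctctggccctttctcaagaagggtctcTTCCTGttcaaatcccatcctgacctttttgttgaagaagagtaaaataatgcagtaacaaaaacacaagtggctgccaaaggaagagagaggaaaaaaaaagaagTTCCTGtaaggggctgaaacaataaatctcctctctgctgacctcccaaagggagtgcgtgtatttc
RefSeq promoters were matched for 7 of the 10 members, and Pecam1, Cdh5 and Vwf were not matched. The Emcn stretch holds CAGGAA 2 times, the Kdr stretch holds CCGGAA 1 time and the Flt1 stretch holds neither. Other letters around GGAA were not searched, and GGAA itself occurs in the Flt1 stretch, so an ETS site there is not excluded. Of the stretches not printed, Tek holds CAGGAA 2 times and Tie1 1 time, and neither gene passed the test. Egfl7 has windows with and without CAGGAA, and the Flt4 stretch holds neither. Among 32851 RefSeq promoters of the same length, 25.7% hold CAGGAA and 12.03% hold CCGGAA. The letters ACGTG, the core that hypoxia-inducible factors bind, are in 16.6% of them and in 0 of the 9 windows of the members. These matches describe letters and were not tested against any measurement.

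Of the 10 members, all of which passed the filter on low counts, 1 (Flt1) was called higher at P0, 2 (Emcn and Egfl7) were called lower and 7 did not pass the test. Over all genes tested, 16% were called higher and 12% lower, 27.9% in all, so 3 of 10 is near the share among all genes. The median log2 fold change of the members was -0.54, beside 0.04 over all genes tested. The litters of the stages did not overlap for 2 members, Flt1 and Egfl7, and did not overlap for 29.9% of all genes tested. The summed level of the members was 156, 111, 205 and 174 CPM at E12.5, in the order of litters given above, and 100.2, 194, 101 and 135 CPM at P0. The P0 litters NPD27 and NPD30 lay within the E12.5 range, and the sums of the stages overlapped.

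**Figure D1:**
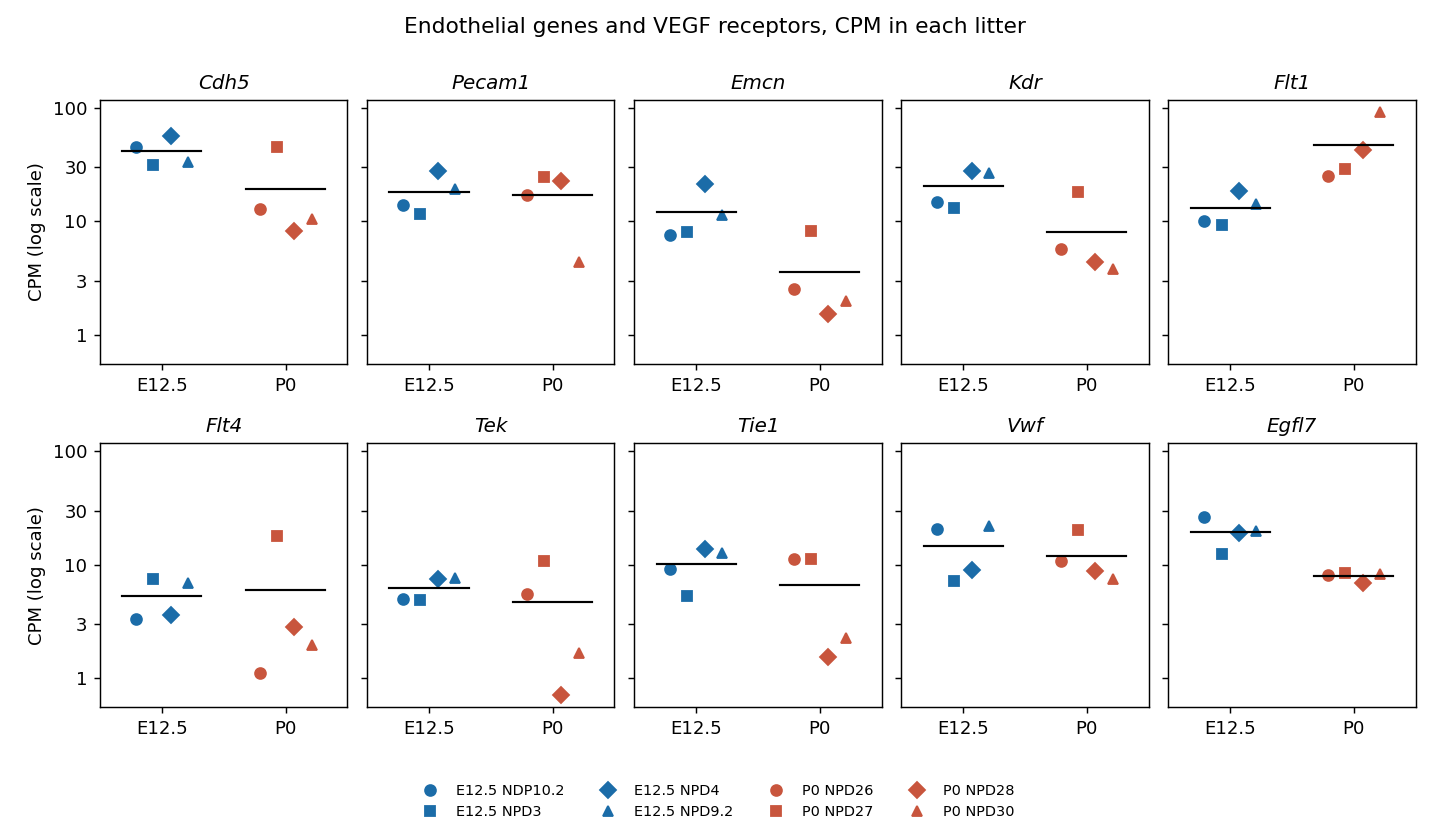
CPM of each of the 10 members (vertical axis, log scale) in the 4 E12.5 litters and the 4 P0 litters, with each litter as a point and the mean of a stage as a line. The P0 points of Flt1 lie above and those of Egfl7 below all E12.5 points, and NPD27 is the highest P0 litter for every member but Flt1 and Tie1.

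Among the junction and surface genes, Emcn fell, and Cdh5 and Pecam1 did not pass the test. Cdh5 (chr8:104101625-104144511) was at 45.3, 31.6, 56.1 and 33.2 CPM at E12.5, with litters ordered as NDP10.2, NPD3, NPD4 and NPD9.2, and at 12.7, 45.6, 8.24 and 10.5 CPM at P0, ordered as NPD26, NPD27, NPD28 and NPD30. In 3 P0 litters the level was below every E12.5 litter, and NPD27 lay within the E12.5 range. The log2 fold change was -1.11 ± 0.51 (adjusted p = 0.133), and without NPD27 it was -1.98 (adjusted p = 0.00232). By limma-voom the adjusted p over all 8 litters was 0.0383.

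Pecam1 (chr11:106654217-106750628), which platelets and leukocytes also express, was at 13.9, 11.5, 27.9 and 19.2 CPM at E12.5, in the same order of litters, and at 17.1, 24.5, 22.7 and 4.40 CPM at P0. The P0 litter NPD30 was the lowest of the 8, the other 3 lay within the E12.5 range, and the log2 fold change was -0.08 ± 0.48 (adjusted p = 0.921). NPD30 was also the P0 litter lowest in the leukocyte sum and in the sum of macrophage markers, 62.3 CPM against 1720 to 5374 CPM in the other P0 litters. Their part in the Pecam1 values was not tested.

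Emcn (chr3:137341067-137432185) was at 7.55, 8.0, 21.3 and 11.3 CPM at E12.5 and at 2.52, 8.22, 1.53 and 1.97 CPM at P0. Again 3 P0 litters lay below all E12.5 litters and NPD27 did not. The log2 fold change of Emcn was -1.76 ± 0.59, which passed the test (adjusted p = 0.0452). This call was close to the threshold: it was made in 2 of 8 fits that left out 1 litter, and its size ranged from -2.58 (adjusted p = 0.0066, without NPD27) to -1.34 (adjusted p = 0.125, without NPD4).

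The receptors of the VEGF family differed from each other. Flt1 (chr5:147561604-147726011) was at 10.1, 9.37, 18.5 and 14.3 CPM at E12.5 and at 25.2, 29.1, 43.0 and 92.3 CPM at P0. Every P0 litter was above every E12.5 litter, and NPD30 was the highest. Flt1 rose by 1.85 ± 0.43 (adjusted p = 0.00875), from a mean of 13.1 ± 4.21 CPM (SD, n = 4) to 47.4 ± 30.9 CPM (SD, n = 4). The rise passed the test whichever of the 8 litters was left out, and its size ranged from 1.27 (without NPD30) to 2.07 (without NPD4). It did not pass with the E12.5 litters NDP10.2 and NPD9.2 both left out, where the log2 fold change was 1.73 (adjusted p = 0.0991).

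Kdr (chr5:75932827-75978458) was at 14.9, 13.1, 27.9 and 26.8 CPM at E12.5 and at 5.66, 18.2, 4.36 and 3.79 CPM at P0. As for Cdh5, 3 P0 litters were below all E12.5 litters and NPD27 was within their range. The log2 fold change was -1.37 ± 0.52 (adjusted p = 0.0734). Kdr was called lower without NPD27 (-2.15, adjusted p = 0.00487), by DESeq2 (adjusted p = 0.0367), by limma-voom (adjusted p = 0.0305) and with no filter on low counts (adjusted p = 0.0107).

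Flt4 (chr11:49609263-49652739) was at 3.30, 7.42, 3.63 and 6.89 CPM at E12.5 and at 1.10, 17.9, 2.83 and 1.97 CPM at P0. NPD27 held 124 of its reads, and the other P0 litters held 7, 24 and 13. The log2 fold change was 0.17 ± 0.79 (adjusted p = 0.899) and turned to -1.40 (adjusted p = 0.112) without NPD27. NPD27 was also the P0 litter highest in Lyve1, a gene of lymphatic and sinusoidal endothelium and of some macrophages, at 85.5 CPM, and in the sum of the sinusoidal genes, 861 CPM. Their part in the Flt4 values was not tested.

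Since a ratio of 2 genes of the same litter does not depend on library scaling, Flt1 was set against Kdr within each litter. At E12.5 the log2 ratio was -0.54, -0.47, -0.59 and -0.90, and at P0 it was 2.09, 0.67, 3.21 and 4.49. Kdr had more reads than Flt1 in every E12.5 litter and Flt1 had more than Kdr in every P0 litter. The mean was -0.62 ± 0.19 (SD, n = 4) at E12.5 and 2.62 ± 1.63 (SD, n = 4) at P0, a difference of 3.24. By a two-sided exact permutation test p was 0.0286, the smallest that 4 against 4 litters allow, and 0.0857 after adjustment over the 3 ratios examined, so it failed the correction. The exact permutation p was 0.0571 without any 1 of the E12.5 litters, where the difference was 3.15 to 3.29. It was 0.0286 without any 1 of the P0 litters, where the difference was 2.61 to 3.89. The smallest p that 3 against 4 litters allow is 0.0286, and the ratios of the stages did not overlap in any of these cases. NPD27, the P0 litter with the most Kdr, had the lowest P0 ratio.

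**Figure D2:**
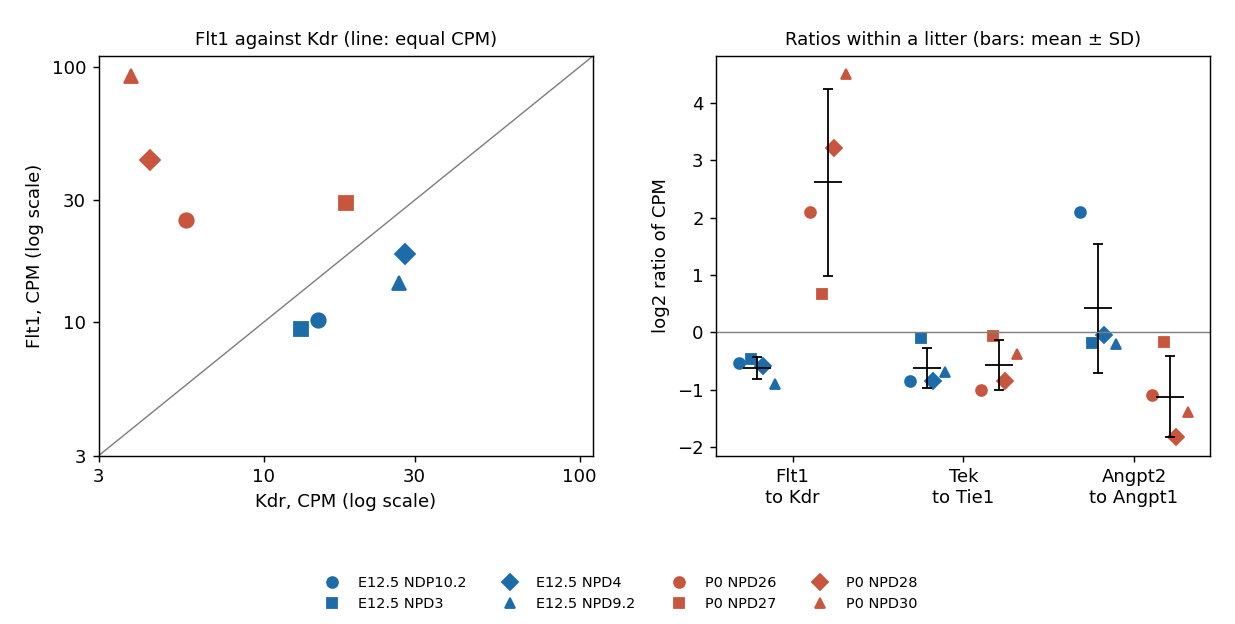
Left, Flt1 against Kdr in CPM (both axes log scale) with each litter as a point and a line of equal CPM. Right, log2 ratios within each litter for Flt1 to Kdr, Tek to Tie1 and Angpt2 to Angpt1, with mean ± SD of each stage. The E12.5 litters lie below the line of equal CPM and the P0 litters above it, and the Tek to Tie1 ratios of the stages overlap.

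Neither receptor of the angiopoietin pathway passed the test. Tek (chr4:94739289-94874976) was at 4.95, 4.88, 7.5 and 7.62 CPM at E12.5 and at 5.50, 10.7, 0.706 and 1.67 CPM at P0. Tie1 (chr4:118471191-118490061) was at 9.2, 5.27, 13.7 and 12.5 CPM at E12.5 and at 11.3, 11.1, 1.53 and 2.27 CPM at P0. For both genes the P0 litters NPD28 and NPD30 were below all E12.5 litters and NPD26 and NPD27 were not. The log2 fold change was -0.43 ± 0.69 for Tek (adjusted p = 0.683) and -0.64 ± 0.63 for Tie1 (adjusted p = 0.490). The log2 ratio of Tek to Tie1 was -0.62 ± 0.35 (SD, n = 4) at E12.5 and -0.57 ± 0.43 (SD, n = 4) at P0, a difference of 0.05 (two-sided exact permutation p = 0.886, also after adjustment over the 3 ratios).

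The secreted members behaved differently from each other. Egfl7 (chr2:26580014-26593120) was at 26.2, 12.3, 19.1 and 19.9 CPM at E12.5 and at 8.18, 8.36, 6.83 and 8.34 CPM at P0. Every P0 litter was below every E12.5 litter, and the P0 litters, NPD27 included, lay close together. Egfl7 fell by 1.29 ± 0.30 (adjusted p = 0.00871), and the fall passed the test whichever of the 8 litters was left out, at sizes between -1.49 and -1.15. It did not pass with NDP10.2 and NPD9.2 both left out (-1.02, adjusted p = 0.0718). In Gencode M21, 11.2% of the exonic bases of Egfl7 are shared with Gm20532 and Mir126a on the same strand or with Agpat2 and Mir126b on the other, so reads there may not have been assigned to Egfl7. Vwf (chr6:125546774-125686679) was at 20.5, 7.22, 8.95 and 22.1 CPM at E12.5 and at 10.9, 20.2, 8.83 and 7.43 CPM at P0. The ranges overlapped and the log2 fold change was -0.31 ± 0.45 (adjusted p = 0.660). The E12.5 litters high in Vwf, NDP10.2 and NPD9.2, were also those highest in the summed megakaryocyte and platelet markers, 155 and 132 CPM against 56.8 and 50.3 CPM. At P0 that sum was 344, 487, 180 and 156 CPM, above every E12.5 litter, while Vwf in the P0 litters lay within its E12.5 range. The part of such cells in the Vwf values was not tested.

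**Figure D3:**
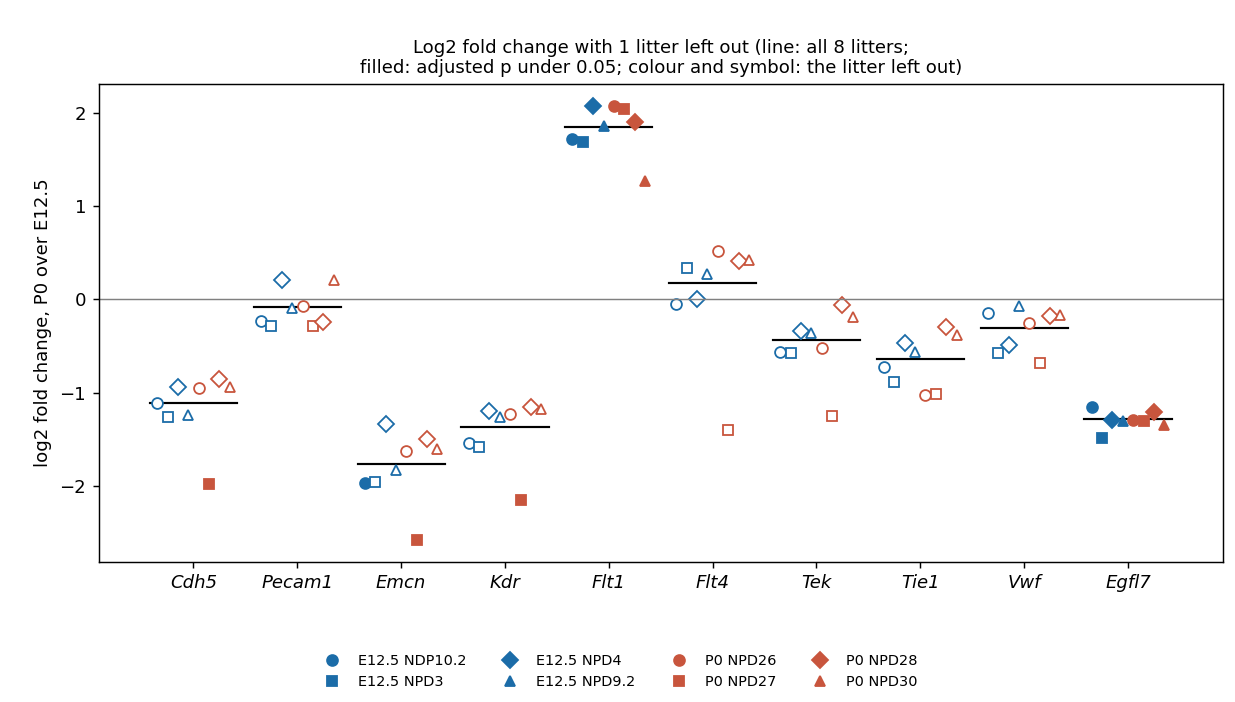
Log2 fold change of each member (vertical axis) when 1 litter was left out, with the left-out litter given by colour and symbol, filled points for an adjusted p under 0.05 and a line for the fit with all 8 litters. Flt1 and Egfl7 are filled in 8 of 8 fits, and Cdh5 and Kdr are filled only without NPD27.

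Levels of different genes were compared as CPM per kilobase of exonic sequence (Gencode M21). At E12.5 Cdh5 was highest, at 9.89 ± 2.73 CPM per kilobase (SD, n = 4), followed by Egfl7 at 5.41 ± 1.59 and Pecam1 at 2.91 ± 1.17, and this order held in 4 of 4 litters. Kdr (2.29), Emcn (2.22) and Tie1 (2.07) followed and changed places between litters. Tek (1.32) was above Flt1 (0.968) in 4 of 4 litters, Vwf was at 0.915, within the spread of Flt1, and Flt4 was lowest at 0.645. At P0 Cdh5 again had the highest mean, 4.58 ± 4.20 CPM per kilobase, but Flt1, at 3.51 ± 2.29, was above it in 2 of 4 litters. Pecam1 (2.76), Egfl7 (2.21), Tie1 (1.33), Tek (0.984), Kdr (0.885), Vwf (0.736), Flt4 (0.722) and Emcn (0.658) followed, and no neighbours in this order kept their places in all 4 litters. The P0 mean of Flt1 rested on NPD30, at 6.84 CPM per kilobase, against 1.86 to 3.18 in the other P0 litters, and Flt1 was above Pecam1 in 1 of 4 litters.

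Cdh5 served as a common measure for other members, as log2 ratios within a litter, given here for Kdr, Emcn, Flt1 and Egfl7. At E12.5 Kdr to Cdh5 spanned -1.59 to -0.31, against -1.39 to -0.87 at P0, and Emcn to Cdh5 spanned -2.54 to -1.39, against -2.43 to -2.20 at P0, so the ranges of the stages overlapped for both. Flt1 to Cdh5 spanned -2.12 to -1.20 at E12.5, against -0.64 to 3.10 at P0, without overlap. Egfl7 to Cdh5 spanned -1.54 to -0.73 at E12.5. At P0 it was -0.62, -0.26 and -0.32 in NPD26, NPD28 and NPD30, above every E12.5 litter, and -2.40 in NPD27, below all of them. These ratios are descriptions and were not tested.

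The genes whose pattern over the 8 litters was closest to a member were found by the root mean square (RMS) difference of log2 CPM after each gene was centred on its mean. The points share libraries and stages. Closest to Cdh5 were Ptprb (RMS 0.33), an endothelial phosphatase of VE-cadherin and Tie2, then Myo5b (0.36), Stk32a (0.37) and Cpsf4l (0.38). The members nearest to Cdh5 were Kdr (0.37) and Emcn (0.39). Closest to Kdr were Doc2b (0.27), Myo5b (0.32), Prss23 (0.34) and Lgi4 (0.37), with Emcn (0.29) as the nearest member. The genes nearest to Pecam1 were Rnf150 (0.25), Gm26530 (0.35), Hmga1 (0.37), Icam2 (0.37), an adhesion molecule of endothelial cells and leukocytes, and Marcks (0.37). Flt1 was added to this search after its values were seen. Its nearest genes were Scrn3 (0.33), Ssc5d (0.34), Acvr2a (0.35), an activin receptor, Lgalsl (0.35) and Kif21a (0.36), each of them highest in NPD30. The member nearest to Flt1 was Vwf, at 1.39.

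The ligands of these receptors were listed as 8 genes, of which 7 could be tested, and 1, Vegfd, was called lower at P0 and none higher. Vegfa, the main ligand of Kdr and Flt1, was at 113, 113, 70.7 and 74.0 CPM at E12.5 and at 35.5, 31.9, 76.4 and 102 CPM at P0. The ranges overlapped, and the log2 fold change was -0.59 ± 0.38 (adjusted p = 0.275). Vegfd, a ligand of VEGFR3, was at 5.19, 6.63, 5.56 and 9.84 CPM at E12.5 and at 0.315, 2.02, 0.471 and 2.88 CPM at P0, where NPD26 was below and NPD28 near the level of 3 counts. It fell by 2.25 ± 0.66 (adjusted p = 0.0265), and the call held in 4 of 8 fits that left out 1 litter, with adjusted p up to 0.0712. Vegfc, the other ligand of VEGFR3, was at 8.0 to 10.4 CPM at E12.5 and at 0.472, 9.08, 1.65 and 8.64 CPM at P0 (-0.91 ± 0.70, adjusted p = 0.372).

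The ligands that bind VEGFR1 alone, Vegfb and Pgf, did not pass the test. Vegfb differed by 0.53 ± 0.28 (adjusted p = 0.190) and Pgf by -0.34 ± 0.58 (adjusted p = 0.708). Angpt1, which activates Tie2, was at 3.54 to 11.1 CPM at E12.5 and 9.18 to 13.2 CPM at P0 (0.64 ± 0.38, adjusted p = 0.242). Angpt2, which often opposes Angpt1, was at 5.66 to 16.3 and 2.35 to 8.22 CPM (-0.87 ± 0.48, adjusted p = 0.207). The log2 ratio of Angpt2 to Angpt1 was 0.42 ± 1.13 (SD, n = 4) at E12.5 and -1.12 ± 0.71 (SD, n = 4) at P0. The difference of -1.54 had a two-sided exact permutation p of 0.0857, and 0.129 after adjustment over the 3 ratios. Angpt4 had too few counts to be tested. Of the coreceptors, which neurons and other cells also use for semaphorins, Nrp1 was at 88.6 to 280 CPM at E12.5 and 54.4 to 288 CPM at P0 (0.25 ± 0.54, adjusted p = 0.769), and Nrp2 at 115 to 146 and 131 to 206 CPM (0.41 ± 0.22, adjusted p = 0.196).

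**Figure D4:**
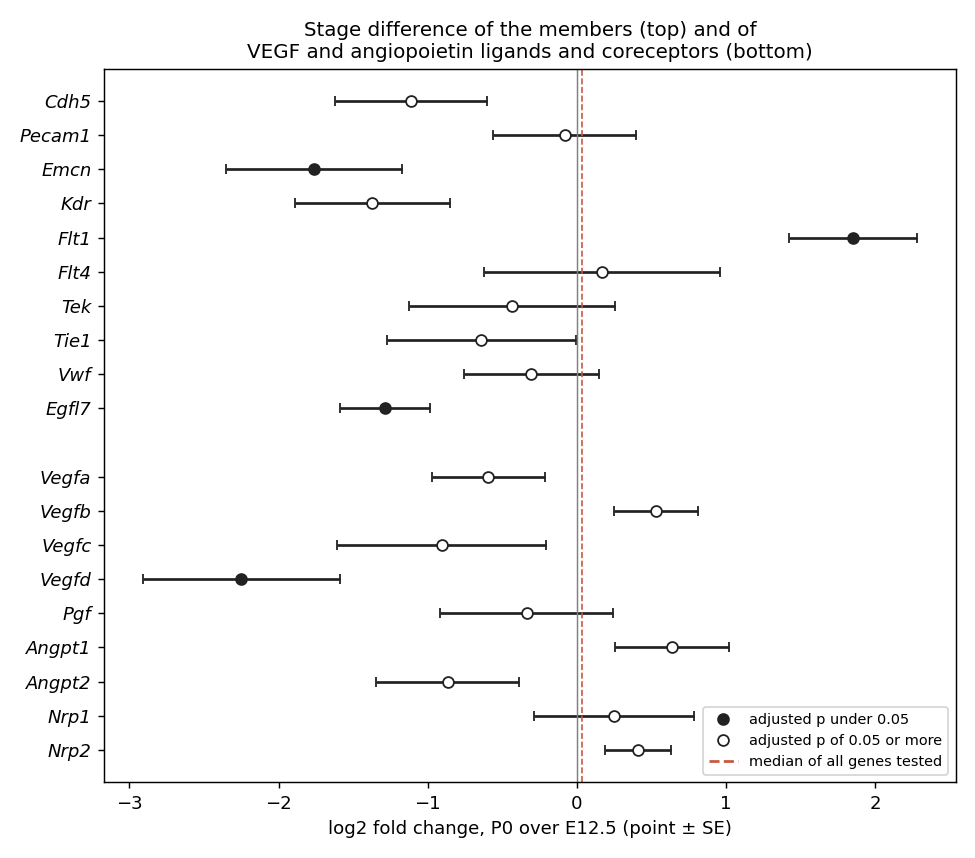
Log2 fold change, P0 over E12.5 (horizontal axis, point ± SE), of the 10 members above and of the ligands and coreceptors below, filled where the adjusted p is under 0.05, with the median of all genes tested as a dashed line. Flt1 is the filled point to the right of 0, and Emcn, Egfl7 and Vegfd are the filled points to the left.

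A further 25 genes used as markers of endothelial cells were listed, of which 23 passed the filter on low counts and Sox17 and Gpihbp1 did not. With no filter Sox17, a transcription factor of arterial endothelium named here after its values were seen, differed by -3.58 on the log2 scale (adjusted p = 0.00584), from 1.17 to 5.41 CPM at E12.5 to 0 to 0.589 CPM at P0. Of these 23, 1 was called higher and 2 lower, and their median log2 fold change was -0.79. The count is below the 27.9% of all genes that were called. S1pr1, the receptor of sphingosine-1-phosphate, which lymphocytes also carry, rose by 1.68 ± 0.39 (adjusted p = 0.00842). At P0 it was at 26.3 CPM in NPD26, 34.2 CPM in NPD27 and 31.9 CPM in NPD28 and at 10.3 CPM in NPD30, within the E12.5 range of 6.05 to 11.1 CPM, and NPD30 was also the P0 litter lowest in the leukocyte sum. Whether leukocyte RNA had a part in it was not tested. Sox7, a transcription factor of early endothelium, fell by 2.75 ± 0.51 (adjusted p = 0.00289), from 3.90 to 8.36 CPM at E12.5 to 0.471 to 1.30 CPM at P0. The P0 values of Sox17 were at or near the level of 3 counts and the lowest of Sox7 was close to it, so the sizes of both falls are poorly set. Cd34, an adhesion protein of endothelial and blood progenitor cells, fell by 1.2 ± 0.39 (adjusted p = 0.0422), a call made in 2 of 8 fits that left out 1 litter.

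Lists for vessel types had medians of -3.20 for arterial, -1.27 for venous, -1.49 for lymphatic and 3.71 for sinusoidal genes on the log2 scale. Of the arterial genes 4 of the 5 tested fell: Gja5 (-5.64 ± 0.64) and Gja4 (-3.69 ± 0.85), both connexins of arterial endothelium, Sema3g (-3.20 ± 0.66) and Efnb2 (-2.89 ± 0.27), the ephrin that marks arteries. Gja5 was at 8.58 to 27 CPM at E12.5 and 0 to 0.471 CPM at P0, and Gja4 at 1.95 to 6.15 and 0 to 0.944 CPM. The P0 values of both are mostly at or near the level of 3 counts, so the sizes of their falls are poorly set. Efnb2 was at 45.1 to 66.5 and 5.18 to 9.91 CPM. The remaining arterial gene tested, Bmx, had the opposite sign but did not pass the test (2.60 ± 1.07, adjusted p = 0.0972). Bmx was at 0 to 5.19 CPM at E12.5 and 2.88 to 36.1 CPM at P0. Dll4, also listed as arterial, had too few counts to be tested. With no filter its log2 fold change was -0.35 (adjusted p = 0.833), and its stages overlapped. Of the venous genes 2 of 3 fell, Ephb4 (-1.98 ± 0.40), the receptor of ephrin-B2, and Nr2f2 (-1.27 ± 0.34), a transcription factor of vein identity and of many mesenchymal cells. Of the lymphatic genes 1 of 3 fell, Prox1 (-2.13 ± 0.55). Lyve1 had the opposite sign (2.63 ± 0.95, adjusted p = 0.0650) and Reln the same sign (-1.49 ± 0.66, adjusted p = 0.123), and neither passed the test. Pdpn and Ccl21a were listed at 0 in all 8 samples, which does not show that they were not expressed. Several of these genes, Efnb2, Nr2f2 and Prox1 among them, are also used outside vessels.

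All 3 of the sinusoidal genes tested rose: Fcgr2b by 7.79 ± 1.30, Stab2 by 3.71 ± 0.91 and Stab1 by 3.64 ± 1.04, of which Fcgr2b and Stab1 are also macrophage genes. Oit3, also listed, had too few counts to be tested. With no filter its log2 fold change had the opposite sign (-1.01, adjusted p = 0.537). The call of Stab1 was made in 3 of 8 fits that left out 1 litter, with adjusted p up to 0.0801, and with no filter on low counts Stab1 (adjusted p = 0.125) and Stab2 (adjusted p = 0.0746) did not pass. Stab1 was at 391, 580 and 296 CPM in NPD26, NPD27 and NPD28 and at 3.03 CPM in NPD30, below the E12.5 range of 16.6 to 41.8 CPM. Stab2 was at 0.585 to 6.64 CPM at E12.5 and 3.18 to 74.8 CPM at P0, so the stages overlapped. Fcgr2b was at 2.12 to 204 CPM at P0. The sinusoidal sum of NPD30, 8.49 CPM, was below the E12.5 range of 18.3 to 48.9 CPM, so the list did not rise in that litter. The E12.5 values of Fcgr2b, 0 to 0.846 CPM, were at or near the level of 3 counts. The macrophage list moved with these genes: 8 of 8 were called higher, with sums of 4803, 5374, 1720 and 62.3 CPM in the P0 litters and 60.1 to 117 CPM at E12.5. The leukocyte list was called higher for 14 of 14 genes, while 8 of 11 genes tested of the megakaryocyte and platelet list did not pass the test. What part these cells had in the sinusoidal genes was not tested.

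Mural cells, which wrap vessels, gave 2 higher and 2 lower calls among 8 genes tested. Notch3 (-3.74 ± 0.35) and Pdgfrb (-0.84 ± 0.28) fell, both receptors of pericytes and smooth muscle cells, while the smooth muscle genes Myh11 and Tagln rose by 2.4 ± 0.57 and 1.81 ± 0.51. The calls of Pdgfrb and Tagln were close to the threshold: they were made in 2 and 3 of 8 fits that left out 1 litter, and with no filter on low counts neither passed (adjusted p = 0.0533 and 0.0594). The mural list as a whole summed to 288 to 729 CPM at E12.5 and 270 to 655 CPM at P0. The notochord and NP list, in which Car3 had the most reads, summed to 2382 to 6367 CPM at E12.5 and to 12574, 8220, 12595 and 31824 CPM at P0. NPD27, the P0 litter highest in most members, was thus the lowest P0 litter in that sum, and NPD30, the litter highest in Flt1, was the highest. The part of these differences in the values of the members was not tested.

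**Figure D5:**
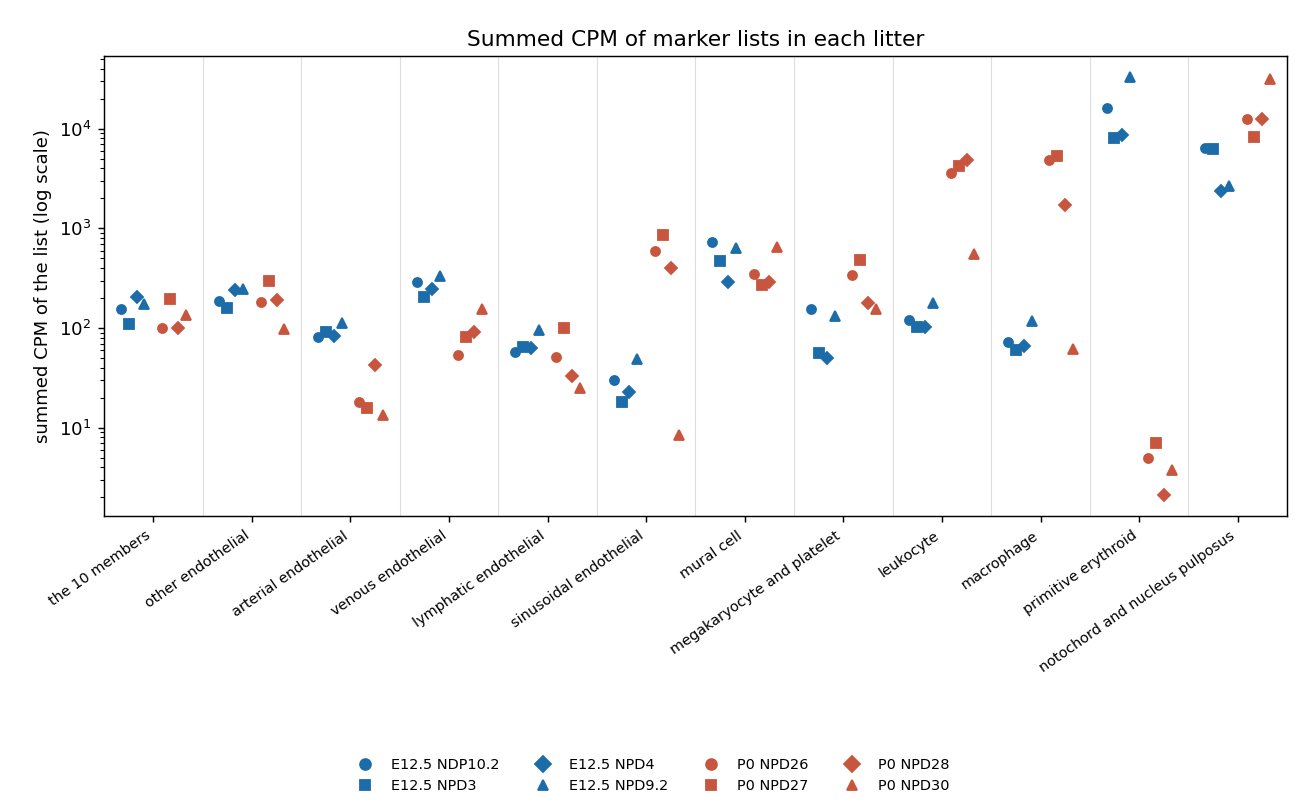
Summed CPM (vertical axis, log scale) of the 10 members and of marker lists of vessel, blood and notochord cells in each litter. The sums of the members overlap between stages, the arterial and venous sums are lower in every P0 litter, and NPD30 lies apart from the other P0 litters in the sinusoidal, leukocyte and macrophage sums.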

How the data were processed

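RNA was sequenced from 4 E12.5 and 4 P0 litters, with the stage taken from the labels. The authors aligned reads with STAR 2.4.0j to GRCm38, counted them on genes with HTSeq and deposited the counts of each sample without normalization. The strand setting is not given in the sources used here, so reads of overlapping genes on opposite strands cannot be told apart. Litters are separate biological samples. Counts were tested in R 4.3.3 with edgeR 4.0.16: TMM, filterByExpr (minimum count 10, minimum total 15), robust quasi-likelihood F-test, P0 over E12.5, without covariates, Benjamini-Hochberg adjustment over 15467 genes. The SE is the size of a log2 fold change divided by the square root of F. A prior count of 2 was added for log2 CPM. The script was tested on simulated data. The study used DESeq2, here (1.42.0) an alternative, as are limma-voom (limma 3.58.1), other scaling and filters, downsampling and left-out litters. Named were every member, ligand and coreceptor, up to 4 called genes with the largest change of each other list, markers at 0, and for Cdh5, Kdr and Pecam1 the 5 nearest genes, apart from items that are not reported here. A further list for hypertrophic chondrocytes and osteoblasts had 6 of 6 tested genes higher, chondrocytes 2 higher and 2 lower of 8, notochord and NP 3 higher and 2 lower of 9, definitive erythroid genes 1 higher and 3 lower of 8, and primitive erythroid genes 3 of 3 lower. The members and lists were chosen with earlier results of these data known. Bmx, Dll4, Lyve1, Reln, Oit3 and the platelet glycoprotein genes were named after their values were seen. Positions and exon lengths are from Gencode M21 on GRCm38, a later annotation than the one counted on, and promoters from RefSeq.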

Additional observations from a re-analysis of the deposited data

Results flagged for a closer look

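In 40 groups of 4 litters examined, 1 held a litter far from the others, and chance flags about 1 in 20 such groups. Egfl7 stood at a log2 CPM of 2.84 in the P0 litter NPD28, with the other P0 litters at 3.09 to 3.12. All 4 P0 litters remained below the E12.5 litters, the lowest of which had a log2 CPM of 3.66.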

How the results depend on the processing

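With the E12.5 litters NDP10.2 and NPD9.2 left out, 0 members were called higher and 0 lower, 0 other endothelial genes higher and 1 lower, 0 ligands were called, and the log2 ratio of Flt1 to Kdr differed by 3.14 between the stages (exact permutation p = 0.133, in a design too small to pass; 3.27 without NDP10.2 alone and 3.15 without NPD9.2 alone). With those 2 litters out, 2581 of 16971 genes tested were called, against 4321 of 15467 with all 8 litters. Limma-voom called 4 members lower. DESeq2 and the fit with no filter on low counts each called 2 other endothelial genes higher and 4 lower, and downsampled counts gave 1 lower. Leaving out 1 litter in turn gave 1 to 4 members lower (4 without NPD27), 1 to 2 other endothelial genes higher (2 without NPD30) and 1 to 7 lower (7 without NPD27), 0 to 1 ligands called, and stage differences of 2.61 to 3.89 for Flt1 to Kdr, -0.12 to 0.22 for Tek to Tie1 and -1.86 to -0.98 for Angpt2 to Angpt1, the last past an unadjusted exact permutation p of 0.05 (p = 0.0286) without NPD27; it was -1.30 without NPD28. Tek to Tie1 was -0.026 without NDP10.2. Log2 fold changes near 0 turned sign: Pecam1 lay between -0.29 and 0.21 and Flt4 between -1.40 and 0.52 with 1 litter left out, Flt4 was -0.047 without NDP10.2 and -0.53 by limma-voom, and with the 2 E12.5 litters out Vwf was 0.50, Nrp1 -0.050 and Tek to Tie1 -0.10. Nrp1 ranged from -0.046 (without NPD27) to 0.70 with 1 litter left out. The cause was not tested. Among 304 alternative values of single genes, 276 kept direction and side of the threshold, 14 lost the call, 6 gained it and 8 reversed. Upper quartile scaling moved the median of all genes to -0.11 and the fit without a filter moved it to 0.45. No paired analysis was possible because the stages share no litter numbers. Genes under about 0.675 CPM could not be measured at these depths.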
